A study of Homo sapiens with 9 samples.

Results

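The pseudogenes described here were the 12235 genes of type pseudogene that lie on chromosomes 1 to 22 other than 19 in the GENCODE v19 annotation of the human genome (hg19), out of 13931 pseudogenes and 57820 genes counted in all. The selection left out 1668 pseudogenes on chromosomes 19, X and Y, 27 whose names begin with ANKRD, and RP11-599J14.2. By their names, 697 members were copies of ribosomal protein genes, 170 followed the naming of mitochondrial copies, and 11368 remained. The selection rule used names and annotation and no measured value, but it was set with earlier results of these data known. RNA came from HEK293T, an established human embryonic kidney line, in 9 Chrom-seq libraries of 3 groups with 3 replicates each. In every group the cells co-expressed, for 48 h, a SunTag array of GCN4 epitopes and APEX2, a peroxidase brought to the array by an antibody fragment, and RNA near APEX2 was tagged with 500 µM biotin-aniline for 30 min and 1 mM H2O2 for 1 min. The array carried the chromodomain of CBX1 in the CBX1 group, that chromodomain with a tryptophan changed to alanine in the CBX1_W42A group, and no reader in the control group, all from transfected constructs in a single cell line. Labels of all 9 libraries, control included, also read NLS, commonly short for nuclear localization signal, which the labels do not spell out. Tagged RNA was pulled down with streptavidin, and cDNA was made from its poly(A)+ fraction with random primers.

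Pseudogenes are genomic copies of genes, or former genes, that have lost the ability to make the original protein. Processed pseudogenes are mRNAs that were reverse transcribed and inserted elsewhere in the genome, which is why highly expressed housekeeping genes such as those of ribosomal proteins have left so many of them. Unprocessed pseudogenes arose by duplication of DNA and keep introns, and unitary pseudogenes are single genes that were disabled in the human lineage. Copies of mitochondrial DNA also sit in the nuclear chromosomes. CBX1 (HP1 beta) is a heterochromatin protein whose chromodomain binds histone H3 trimethylated on lysine 9 (H3K9me3), a mark of silent repeats, zinc finger gene clusters and other repressed chromatin. The comparisons asked which pseudogene RNAs were captured more with the reader than without it, and whether the amino acid change altered that capture.

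A read can be told from one of the source mRNA only where a copy differs from its source gene, so 90 bases of each copy on which the results turn are shown with the matching coding bases of the source gene, 5′ to 3′ on the gene strand, from the GRCh37 genome. Each window was the stretch without gaps nearest the middle of the alignment, and capitals mark bases that differ between the pair. RPS2P5, the ribosomal protein copy with the highest counts, did not differ from RPS2 at any of these bases, and MTND4P12, the mitochondrial copy with the highest counts, differed from MT-ND4 at 3. RPS2P5 was taken at chr12:118684283-118684372 (plus strand) and RPS2 at chr16:2012802-2012891 (minus strand), and MTND4P12 at chr5:134262994-134263083 (minus strand) and MT-ND4 at chrM:11403-11492 (plus strand).
RPS2P5: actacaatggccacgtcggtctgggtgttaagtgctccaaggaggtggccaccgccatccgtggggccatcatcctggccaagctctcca
RPS2: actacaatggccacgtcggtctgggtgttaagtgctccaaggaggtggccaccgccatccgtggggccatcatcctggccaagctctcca
MTND4P12: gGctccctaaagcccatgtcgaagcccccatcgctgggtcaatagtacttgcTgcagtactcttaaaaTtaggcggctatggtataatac
MT-ND4: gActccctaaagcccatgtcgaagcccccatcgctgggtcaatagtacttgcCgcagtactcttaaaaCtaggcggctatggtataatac

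RPL3P7 and RPL13AP20, ribosomal protein copies enriched with CBX1, differed more from their sources in these windows, at 7 and 5 bases. PRKXP1, the remaining pseudogene with the smallest adjusted p, differed from PRKX at 8. Over the whole alignment the order was another: RPL13AP20 (96.7% identity) was closer to its source than MTND4P12 (95.8%), and RPL3P7 was at 95.5%. RPL3P7 was taken at chr6:108326124-108326213 (minus strand) and RPL3 at chr22:39711413-39711502 (minus strand). RPL13AP20 was taken at chr12:13028692-13028781 (plus strand) and RPL13A at chr19:49994039-49994303 (plus strand), a span that includes an intron not shown. PRKXP1 was taken at chr15:101094113-101094202 (minus strand) and PRKX at chrX:3544541-3559967 (minus strand), again across an intron.
RPL3P7: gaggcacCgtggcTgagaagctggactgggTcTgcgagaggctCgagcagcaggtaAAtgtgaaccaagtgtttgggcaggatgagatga
RPL3: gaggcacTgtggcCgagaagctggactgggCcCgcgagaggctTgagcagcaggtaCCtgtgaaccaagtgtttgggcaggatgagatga
RPL13AP20: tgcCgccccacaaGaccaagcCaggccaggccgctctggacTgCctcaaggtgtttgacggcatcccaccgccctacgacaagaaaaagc
RPL13A: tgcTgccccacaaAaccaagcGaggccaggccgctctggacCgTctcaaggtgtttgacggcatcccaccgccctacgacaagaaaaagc
PRKXP1: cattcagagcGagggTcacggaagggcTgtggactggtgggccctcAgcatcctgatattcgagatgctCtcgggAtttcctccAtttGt
PRKX: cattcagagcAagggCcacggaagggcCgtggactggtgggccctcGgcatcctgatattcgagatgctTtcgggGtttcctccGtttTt

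The libraries held 8379542 to 11082852 counts, and between 21709 and 23819 genes had a count, fewest in the control libraries. The HEK293T markers NEFM and VIM had 1899 to 3551 and 3755 to 6422 counts per library, all 8 markers of that line summed to 7276 to 12424, and the markers of other cell types summed to 214 to 394, almost all from COL1A1, with CD3E (T cells) and HBB (red cells) at 0 throughout. The study calls its replicates independent, and neither it nor the labels say whether they were separate cultures, so the p-values measure the spread between these libraries. Since the RNA came from pooled cells, more captured RNA per cell and more cells with captured RNA cannot be told apart. Sample numbers of the CBX1_W42A libraries form a run apart from those of the control and CBX1 libraries. The labels do not say whether all were prepared together. Where CBX1_W42A is compared, the reader and any difference in preparation therefore cannot be told apart.

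Most pseudogenes gave no reads. Of the 12235 members, 3069 had at least 1 count over the 9 libraries and 925 had more than 18. The 3 groups by name differed: 167 of the 697 ribosomal protein copies, 16 of the 170 mitochondrial copies and 2886 of the 11368 remaining pseudogenes had a count, and 44, 6 and 875 of them had more than 18. Position in other genes bore on this, since all 2064 members that lie inside another gene on their strand had no counts, the pattern left when reads shared by genes of a strand are counted for none of them.

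More of them were detected with the reader. The number of members with a count was 1290, 1313 and 1262 in the control libraries, 1638, 1603 and 1644 in the CBX1 libraries and 1644, 1591 and 1410 in the CBX1_W42A libraries. All 3 CBX1 libraries stood above the 3 control libraries, although CBX1 replicate 1 (8704047 counts) was shallower than control replicate 1 (10839843 counts). Among the ribosomal protein copies alone the numbers were 64, 67 and 68 in control, 88, 81 and 87 with CBX1 and 86, 82 and 68 with CBX1_W42A. The whole gene table moved the same way, from 21709 to 21876 genes with a count in control to 23289 to 23819 with CBX1.

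The summed level of the remaining pseudogenes was higher with either reader, while the sums of the other 2 groups by name followed a single abundant copy each. The remaining pseudogenes summed to 6068, 6303 and 6206 CPM (counts per 1000000, scaled by TMM factors) in control, 6878, 6645 and 6741 with CBX1, and 6424, 6499 and 6504 with CBX1_W42A. These 3 sets of values did not overlap, and the mean with CBX1 was 9.08% above control. Scaled by library size alone, the means were further apart, at 5932 CPM in control, 6997 with CBX1 and 6528 with CBX1_W42A, again without overlap. The ribosomal protein copies summed to 542 ± 49.8 CPM in control, 524 ± 43.7 with CBX1 and 609 ± 46.3 with CBX1_W42A (SD, n = 3), of which RPS2P5 alone held 63.2% of the counts. Control and CBX1 overlapped, and their order turned with library size alone (519 ± 53.4 and 542 ± 45.4 CPM). Without RPS2P5 the sums were 185 ± 15.4, 218 ± 10.4 and 213 ± 8.92 CPM, with both reader groups above every control library. The mitochondrial copies summed to 26.3 ± 1.26, 29.7 ± 4.49 and 35.9 ± 5.04 CPM, with 73.6% of the counts in MTND4P12, and to 6.90 ± 0.992, 9.55 ± 1.36 and 7.86 ± 1.03 CPM without it.

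**Figure D1:**
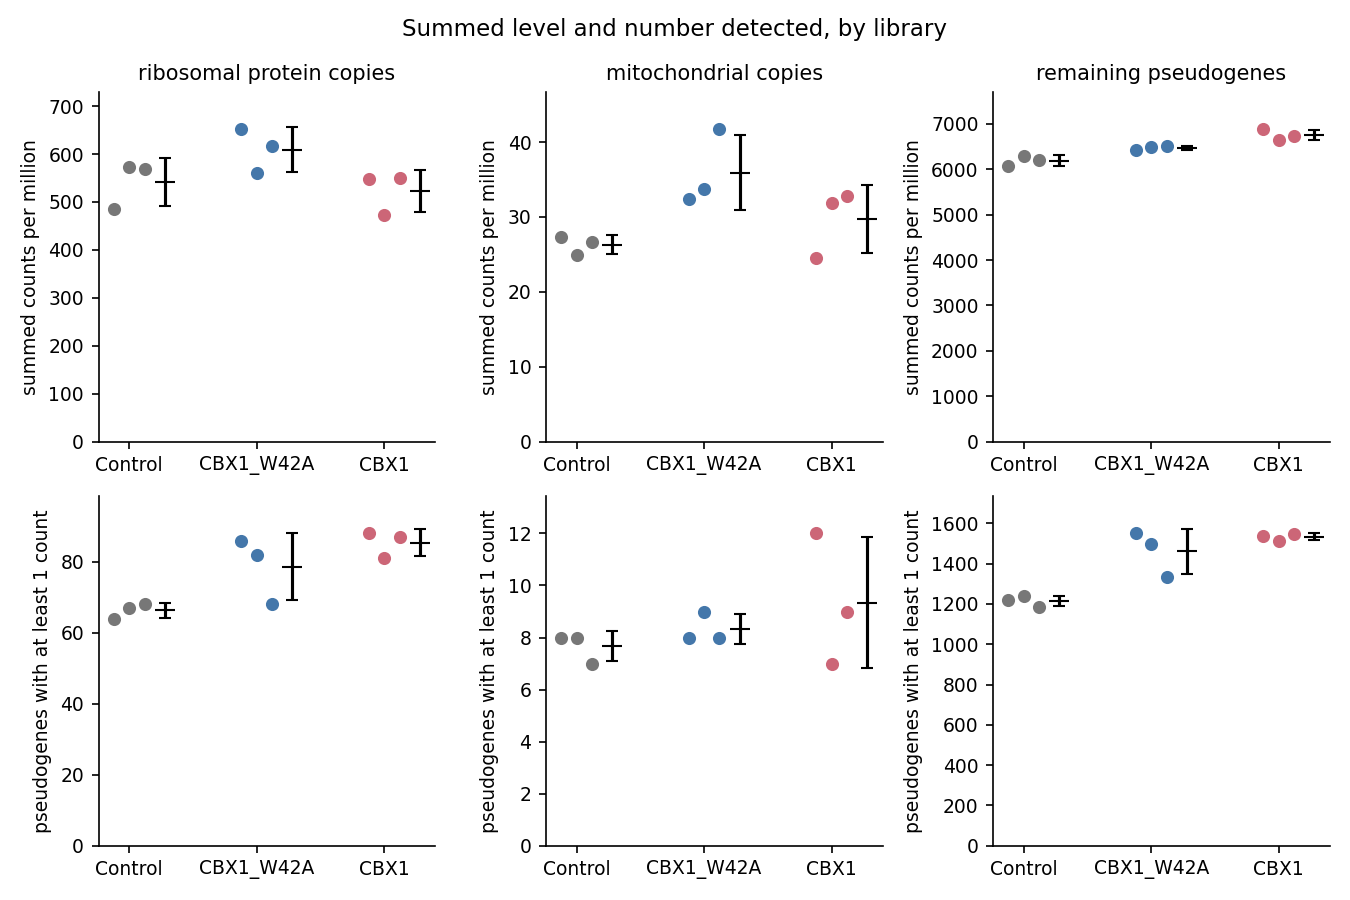
Summed CPM, scaled by TMM factors (top), and number of pseudogenes with at least 1 count (bottom) for the 3 groups by name; points are libraries and the black bar gives the mean ± SD of 3. Every CBX1 library lies above every control library in both panels of the remaining pseudogenes, and the sum of the ribosomal protein copies is at 473 to 551 CPM with CBX1 against 485 to 572 in control, overlapping ranges whose means change order with library size alone.

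CBX1 against control. With the CBX1 reader, 81 pseudogenes were enriched and 1 was depleted (0.34% of all genes were) among the 763 that could be tested, having more than 18 counts over the 6 libraries. Enriched means an adjusted p below 0.05 in edgeR's quasi-likelihood test, adjusted over all genes by Benjamini-Hochberg, with a log2 fold change of at least 0.75. The enriched share was 10.6%, against 7.06% of all 18837 genes tested, 4.76% of protein coding genes and 15.4% of noncoding genes other than pseudogenes. By name, 3 of 33 ribosomal protein copies, 0 of 6 mitochondrial copies and 78 of 724 remaining pseudogenes were enriched. The median log2 fold change was 0.36, 0.40 and 0.35 in these 3 groups, against 0.03 over all genes tested. Leaving out CBX1 replicate 1 lowered the number enriched from 81 to 52.

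The share enriched varied with the level. Among members with up to 100 counts over the 6 libraries, 8.78% (36 of 410) were enriched, against 9.77% of all genes in that range, and among those with more than 100 and up to 1000 counts 16.2% (42 of 259), against 15.1%. Both shares were near those of other genes at the same level. Above 1000 counts, 3.19% (3 of 94: CCDC162P, RP11-1277A3.2 and TPTE2P5) were enriched, against 0.912% of all genes. The median log2 fold changes in the 3 ranges were 0.53, 0.25 and 0.08 for the members and 0.60, 0.21 and -0.11 for all genes. In 173 of the 763 members (22.7%) the lowest CBX1 library was above the highest control library, against 17.6% of all genes. In 40 (5.24%) every CBX1 library was below every control library, against 20.3% of all genes.

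**Figure D2:**
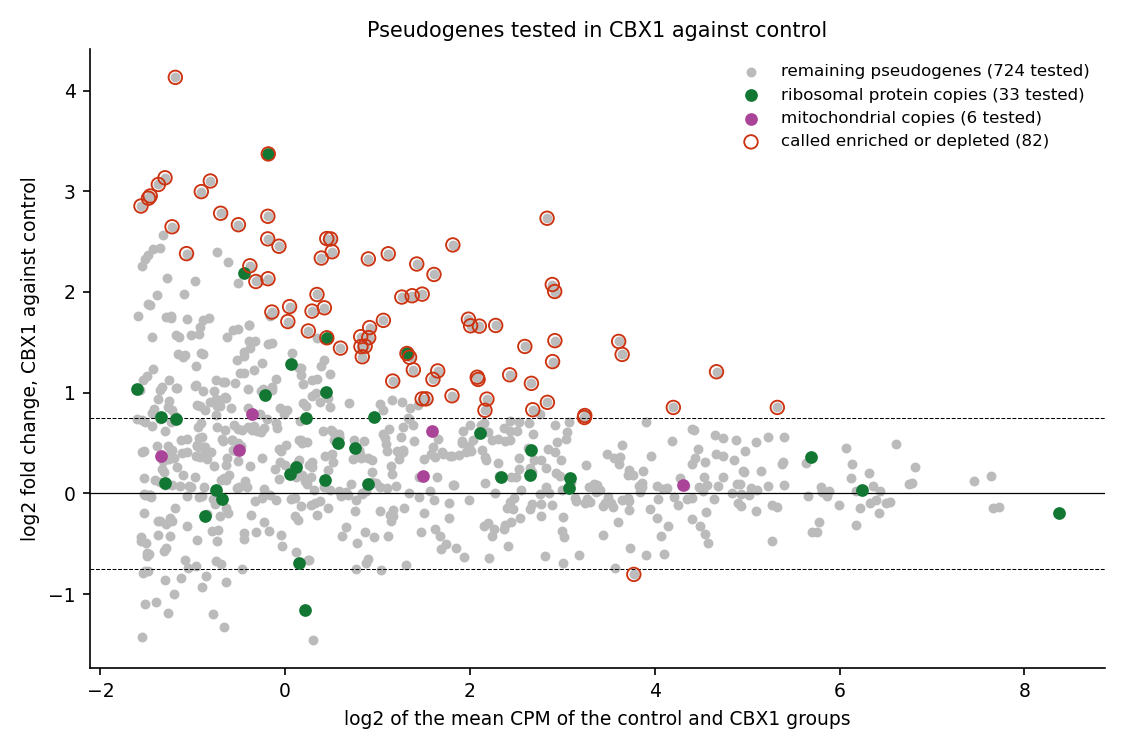
Log2 fold change of CBX1 against control for the 763 pseudogenes tested, against the log2 of the mean CPM of the 2 groups; colours give the 3 groups by name, red circles the 82 called, and dashed lines log2 0.75 in each direction. The enriched members lie mostly at low and middle levels, RPL3P7 stands highest among the ribosomal protein copies at 3.37, and the copies of the mitochondrial group lie between 0.08 and 0.79.

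Log2 fold changes of the 81 enriched members ran from 0.75 to 4.13, with a median of 1.72. In 77 of them the CBX1 and control libraries did not overlap, a description only, as these same libraries had chosen them. The 81 were scarce in control, at a median of 0.992 CPM, and 9 of them had at most 3 counts over the 3 control libraries. CES5AP1, a carboxylesterase pseudogene on chromosome 22, gave the highest fitted value, from 1 control count against 24 with CBX1, a ratio of 23.1 with a 95% interval of 3.77 to 952 for counting error alone. Their spans ranged widely, with 26 under 3 kb and 30 over 30 kb.

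PRKXP1, on chromosome 15 (101093734-101099159), is a copy of PRKX, an X-linked protein kinase gene. It had 27, 29 and 27 counts in the control libraries, 105, 116 and 120 with CBX1 and 42, 76 and 60 with CBX1_W42A. The 3 groups did not overlap. Its log2 fold change with CBX1 was 2.005 ± 0.20 (adjusted p = 1.21e-05, log2 fold changes being given ± SE throughout), while PRKX, which had 204 to 285 counts in control and 214 to 244 with CBX1, gave -0.04 ± 0.13 (adjusted p = 0.840). CCDC162P, a unitary pseudogene of a coiled-coil protein gene on chromosome 6, rose from 152, 138 and 134 counts to 347, 316 and 334 (log2 1.21 ± 0.12, adjusted p = 1.34e-05), with 227, 220 and 232 in CBX1_W42A, again without overlap. RP11-29H23.5, an unprocessed pseudogene on chromosome 1, went from 14, 16 and 21 counts to 150, 103 and 93 (log2 2.73 ± 0.29, adjusted p = 1.80e-05). TFP1, a transferrin pseudogene of 92579 bases on chromosome 3, had 33, 18 and 28 counts in control and 95, 107 and 139 with CBX1 (log2 2.07 ± 0.22, adjusted p = 2.07e-05).

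The other 8 of the 12 remaining pseudogenes named by smallest adjusted p rose by log2 0.85 to 2.47, and none of them had a CBX1 library at or below a control library. AC026150.6 on chromosome 15 had the steepest of these, from 15, 11 and 4 counts to 69, 41 and 59 (log2 2.47 ± 0.35). ZNF876P, a zinc finger pseudogene near the end of the short arm of chromosome 4, rose from 27, 41 and 39 to 103, 102 and 110 (1.52 ± 0.22). KLRAP1, left from a killer cell lectin-like receptor gene in the natural killer gene cluster of chromosome 12, went from 42, 40 and 36 to 98, 98 and 102 (1.31 ± 0.19), and FER1L4, a ferlin family pseudogene on chromosome 20, from 69, 44 and 78 to 158, 190 and 159 (1.38 ± 0.20). RP11-752G15.9, which GENCODE v44 names ACTG1P17, an actin copy, gave 1.46 ± 0.22. RP11-108K14.4 (1.51 ± 0.20) is listed in GENCODE v44 as SCART1, a protein coding scavenger receptor gene. The most abundant, RP11-1277A3.2 (292, 264 and 235 counts to 501, 399 and 559) and TPTE2P5 (129, 123 and 110 to 192, 218 and 259), changed least, by 0.85 ± 0.11 and 0.85 ± 0.13.

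**Figure D3:**
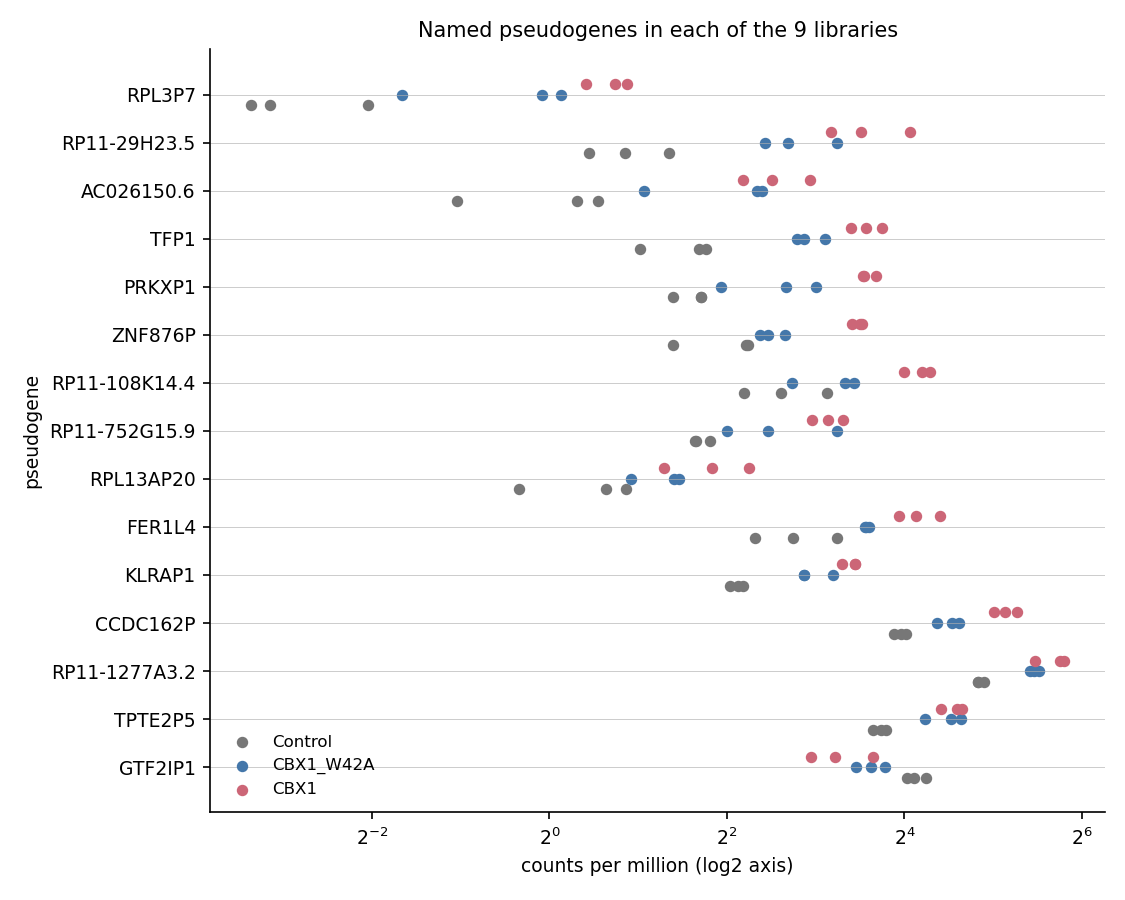
CPM on a log2 axis for 15 pseudogenes called and named in CBX1 against control, 1 point per library, sorted by log2 fold change of CBX1 against control from GTF2IP1 at the bottom (-0.80) to RPL3P7 at the top (3.37). The CBX1_W42A points lie mostly between those of control and CBX1.

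The single depleted member was GTF2IP1 on chromosome 7, a duplicated copy of the gene of the general transcription factor TFII-I. Its counts were 177, 144 and 156 in control and 84, 113 and 80 with CBX1, which did not overlap (log2 -0.80 ± 0.17, adjusted p = 0.00425), with 136, 131 and 104 in CBX1_W42A. Another gene on its strand overlaps it in part, and its value lay below log2 0.75 without control replicate 3 (-0.74) and without CBX1 replicate 3 (-0.65).

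Ribosomal protein copies. The copies stem from 71 source genes, most often RPL21 (51 copies), RPL5 (35) and RPS3A (33), genes of the large and small subunits of the cytosolic ribosome. Those with reads were the ones most like their sources. Over the copies not inside another gene, the median identity to the source coding sequence was 87.0% for 390 copies without a count, 91.0% for 122 with 1 to 18 counts and 96.3% for 44 with more, and 28 of those 44 were at least 95% identical. Mitochondrial copies followed the same order at the ends, with a median of 74.3% for 119 without a count, 71.9% for 7 with 1 to 18 counts and 98.4% for 5 with more. How reads that match both a copy and its source were treated is not given in the sources used here, so the counts of the closest copies are uncertain.

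**Figure D4:**
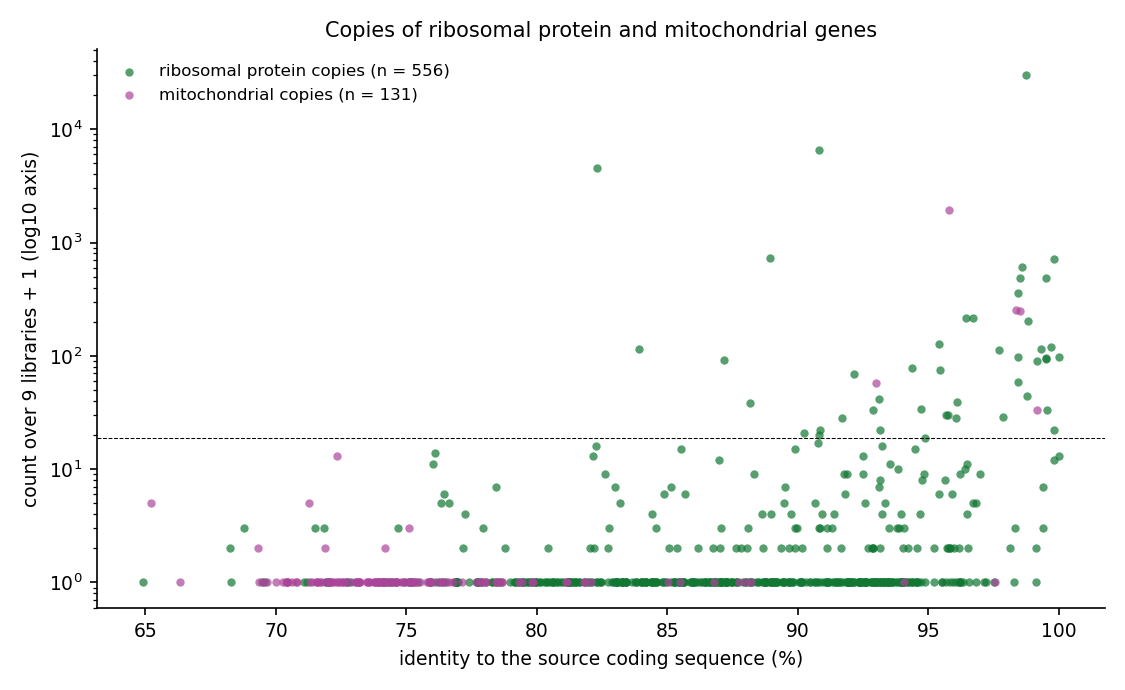
Count over the 9 libraries plus 1 (log10 axis) against identity to the source coding sequence, 1 point per copy that does not lie inside another gene on its strand; the dashed line marks more than 18 counts. Copies above the line lie mostly above 90% identity, RPS2P5 is the highest point, and RPL32P3, at 82.3% identity over the 46.2% of the source that aligned, lies apart from the rest.

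RPS2P5, a copy of RPS2 of the small subunit that is 98.7% identical to it, had 3251, 3321 and 3119 counts in control, 2933, 2401 and 3349 with CBX1 and 4756, 3394 and 3779 with CBX1_W42A. Its groups overlapped, and it was not called in any comparison. Its log2 fold changes stood beside those of RPS2, at -0.20 ± 0.10 and -0.18 ± 0.09 for CBX1 against control and 0.15 ± 0.11 and 0.14 ± 0.10 for CBX1_W42A against control. RPL23AP7 (722, 748 and 594 counts in control, 621, 673 and 874 with CBX1) and RPL23AP53 (63, 88 and 74, then 74, 71 and 95) gave 0.04 ± 0.11 and 0.05 ± 0.20. RPL32P3, whose span of 16734 bases on chromosome 3 holds far more than its copied coding part, had 426, 394 and 423 counts in control and 571, 515 and 549 with CBX1, without overlap, but its log2 fold change of 0.36 ± 0.11 (adjusted p = 0.0282) was below log2 0.75.

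Of the 3 enriched copies, 2 are given here, and both were seldom counted in control. RPL3P7, a full-length copy of RPL3 on chromosome 6 at 95.5% identity, overlapped no other gene and had 1, 1 and 2 counts in control, 12, 15 and 19 with CBX1 and 12, 9 and 3 with CBX1_W42A. Its log2 fold change was 3.37 ± 0.64 (adjusted p = 0.00202), against -0.08 ± 0.08 for RPL3. RPL13AP20 on chromosome 12, at 96.7% identity, had 16, 7 and 15 counts in control and 22, 43 and 37 with CBX1 (1.39 ± 0.37, adjusted p = 0.0155), against -0.07 ± 0.09 for RPL13A, and its call was lost without CBX1 replicate 2 (adjusted p = 0.0763). Without control replicate 2, 5 ribosomal protein copies were enriched, and without CBX1 replicate 2, 1 was.

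Split at 97% identity, the copies less like their sources had the higher median fold change, with overlapping ranges. The 15 tested copies under 97% identity had a median log2 fold change of 0.74 in CBX1 against control, from -0.23 to 3.37, and the 18 at 97% or more had 0.19, from -1.16 to 2.19. The cut is not the 95% used above for identity, and no split at 95% is given. Both enriched copies given above, RPL3P7 (95.5%) and RPL13AP20 (96.7%), lie between these cuts. The split did not hold the level equal. Over all members tested, the median fell with level, from 0.53 at up to 100 counts to 0.08 above 1000. The part of identity apart from level was not tested. The 82 ribosomal protein mRNAs tested had a median of 0.18, with 3 enriched. The 28 copies of RPSA and of the RPLP genes, which also encode ribosomal proteins but whose names the pattern does not take, were among the remaining pseudogenes, and 2 of the 5 tested were enriched. RPLP0P2 had 1, 1 and 2 counts in control and 6, 7 and 10 with CBX1, and RPSAP47 had 11, 11 and 7 against 89, 6 and 19, with 1 CBX1 library below every control library.

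Mitochondrial copies. The pattern took 156 copies of 12 genes of the mitochondrial genome and 14 copies of nuclear genes whose names also begin with MT, such as MTHFD2 and MTX1. Of the 6 with enough counts, 0 were enriched or depleted in any of the 3 comparisons by edgeR or DESeq2. With edgeR, 0 of the 6 had an unadjusted p below 0.05 in CBX1 against control, 1 was higher in CBX1_W42A against control and 1 was lower in CBX1 against CBX1_W42A. Over all genes, 3421 were higher and 3027 lower of 18837 in the first comparison. These numbers were 1804 and 1795 of 18680 in the second, and 1593 and 1627 of 19360 in the third. MTND4P12, a copy of the gene for a subunit of respiratory complex I on chromosome 5, had 217, 149 and 166 counts in control, 129, 215 and 231 with CBX1 and 259, 244 and 330 with CBX1_W42A. In CPM the CBX1_W42A libraries were above every control library, but its log2 fold change over control, 0.53 ± 0.16, had an adjusted p of 0.0759, and that of MT-ND4 was 0.34 ± 0.10 (adjusted p = 0.0748). MTND4P12 is 95.8% identical to MT-ND4, which had 28431 to 45873 counts per library, and the part of MT-ND4 reads in its counts was not tested.

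MTND2P28 and MTATP6P1, copies of genes for another complex I subunit and for an ATP synthase subunit, lie within one stretch of chromosome 1 (565020-566063 and 569076-569756), at 98.4% and 98.5% identity. MTND2P28 had 22, 17 and 26 counts in control and 31, 31 and 41 with CBX1 (0.62 ± 0.30, adjusted p = 0.149), without overlap. MTATP6P1 had 21, 34 and 18 against 20, 24 and 41 (0.17 ± 0.34). MTX1P1, a copy of the nuclear gene of metaxin 1, an outer membrane protein, had 7, 9 and 0 against 17, 3 and 8. The 13 coding genes of the mitochondrial genome itself had log2 fold changes of 0.15 to 0.53, with a median of 0.32 and 0 enriched.

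The 4 most abundant remaining pseudogenes had log2 fold changes of -0.15 to 0.17 with CBX1, and 0 of them were called. HMGB1P5, 98.6% identical to the gene of the chromatin protein HMGB1, had 2255, 2194 and 1675 counts in control and 1769, 1848 and 2054 with CBX1 (-0.13 ± 0.09). EEF1A1P5, 99.7% identical to the gene of the translation elongation factor EEF1A1, had 2151, 1930 and 1787 against 2152, 1182 and 2074 (-0.15 ± 0.15). DDX12P, a helicase pseudogene (0.17 ± 0.09), and HERC2P2, a duplicate of part of the ubiquitin ligase gene HERC2 (0.13 ± 0.09), had adjusted p-values of 0.179 and 0.348.

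By kind of pseudogene, in GENCODE v44, the enriched members were spread over all the larger classes, in differing shares. Of the processed pseudogenes 21 of 237 tested were enriched, and of those marked as transcribed 12 of 63. For unprocessed pseudogenes the numbers were 16 of 109 and, for those marked as transcribed, 18 of 212, and for transcribed unitary pseudogenes 6 of 30. Members listed there only as pseudogene gave 1 of 34, and those absent from GENCODE v44 gave 2 of 40. Of the members that GENCODE v44 now lists as protein coding, 3 of 25 were enriched, and without all members listed there as protein coding or lncRNA 77 enriched pseudogenes were left. Overlap with other genes moved with the share: 43 of 371 members that overlap no other gene were enriched, 24 of 162 that a same-strand gene overlaps in part, and 14 of 230 that overlap a gene on the opposite strand alone.

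**Figure D5:**
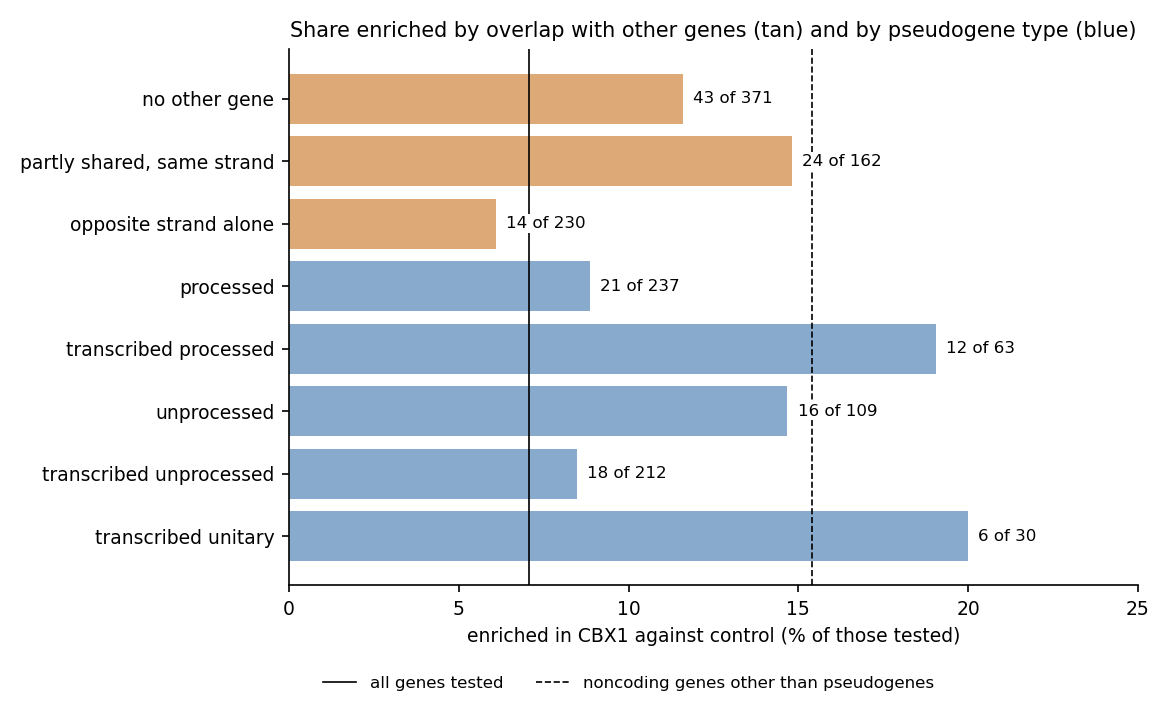
Share of tested pseudogenes enriched in CBX1 against control, by overlap with other genes (tan) and by GENCODE v44 type (blue, not every type shown), with the numbers enriched and tested beside each bar. The solid line marks all genes tested (7.06%) and the dashed line noncoding genes other than pseudogenes (15.4%).

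Families chosen by name ranged in the share enriched, on small numbers, beside 10.6% of all members and 7.06% of all genes tested. Of 50 zinc finger pseudogenes 15 were tested and 3 (20%) were enriched: ZNF876P, ZNF663P (7, 6 and 12 counts in control, 39, 38 and 49 with CBX1, log2 2.28 ± 0.36) and ZSCAN12P1 (0.83). Of 214 members of segmental duplication families 72 were tested, 3 (4.17%) were enriched (USP32P3, GOLGA6L7P and GTF2IRD2P1) and GTF2IP1 was depleted. Copies of abundant mRNAs gave 5 of 37 tested (13.5%): KRT18P55, KRT18P4, HMGB1P20, RPLP0P2 and RPSAP47. Of 40 widely studied pseudogenes 16 were tested and 1 (6.25%) was enriched, AOC4P, an amine oxidase pseudogene on chromosome 17, with 5, 13 and 12 counts in control and 57, 39 and 44 with CBX1 (2.17 ± 0.37, adjusted p = 0.000983). Members with clone names in GENCODE v19, some of which GENCODE v44 names otherwise, made up 30 of the 81 enriched and 299 of the 763 tested.

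Olfactory receptor pseudogenes, silent in most cells, were meant to give a level for reads that come from no expressed gene. Only 33 of all 422 had a count over the 9 libraries, and 2 were tested in CBX1 against control. Their summed level is thus a mean over mostly uncounted members and not an even background. The 368 olfactory receptor pseudogenes not inside another gene held 48, 62 and 59 counts in control, 91, 78 and 94 with CBX1 and 61, 58 and 51 with CBX1_W42A, over 499.8 kb in all. This was 0.0126 ± 0.00278 CPM per kb in control and 0.0186 ± 0.00150 with CBX1, without overlap, so this level also moved with the reader, and its part in the low counts of other members was not tested. The gain of the 81 enriched members over control was 0.00479 to 4.35 CPM per kb, with a median of 0.230, and 76 of them gained more than the whole level of the olfactory receptor pseudogenes with CBX1. A rise in these same libraries had chosen the 81, and the olfactory receptor level came from few members. This is therefore a description and does not test where the reads of the 81 came from. Reads running on from a neighbour were looked for as well. Of the 81 enriched members 20 had a tested gene on the same strand ending within 5 kb upstream, and in 5 of these (25%) it was enriched too (ZNF721 before ABCA11P, GGT1 before BCRP3, FAM153C before RP11-889L3.1, ZNF736 before TRIM60P18 and MKRN7P before ZNF663P), against 11 of 87 (12.6%) of the members not enriched. The part of such neighbours was not tested.

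CBX1_W42A against control. The mutated reader enriched 11 of 739 pseudogenes tested (1.49%, against 0.974% of all genes) and depleted 0 by edgeR and by DESeq2 (0.0214% of all genes by edgeR). At an unadjusted p below 0.05 by edgeR, 95 of the 739 were higher and 18 lower. Of the 18680 genes tested, 1804 (9.66%) were higher and 1795 (9.61%) lower. All 11 were remaining pseudogenes, and 9 of them were also enriched with CBX1, a comparison that used the same control libraries. RP11-29H23.5 had 59, 90 and 61 counts with CBX1_W42A over 14, 16 and 21 in control (log2 1.90 ± 0.31, adjusted p = 0.00443), and TFP1 had 76, 82 and 69 over 33, 18 and 28 (1.39 ± 0.26, adjusted p = 0.0114). CCDC144CP, a coiled-coil pseudogene on chromosome 17, had 77, 71 and 54 over 25, 20 and 27 (1.35 ± 0.26, adjusted p = 0.0163), with 66, 40 and 58 in the CBX1 libraries. RP11-632K20.6, a golgin pseudogene on chromosome 15 that GENCODE v44 names GOLGA6L23P, had 47, 78 and 65 over 23, 19 and 22 (1.45 ± 0.29, adjusted p = 0.0177). These values left no overlap between the 2 groups. The count of 11 fell to 2 without control replicate 1, 3 without CBX1_W42A replicate 2, 5 without replicate 3 and 7 without control replicate 2 or 3.

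For the 81 pseudogenes enriched with CBX1, the CBX1_W42A mean lay between those of control and CBX1 in 77, above CBX1 in 2 and below control in 2. Of the 70 with more than 18 counts over the control and CBX1_W42A libraries, and so tested, 9 were enriched over control, with a median log2 fold change of 0.87. The rest of the 81 had too few counts there and are not in that median. Since the 81 were chosen by the same control libraries, this is a description.

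CBX1 against CBX1_W42A. Compared directly, 9 of 826 pseudogenes (1.09%, against 0.795% of all genes) were higher with CBX1 and 1 was lower (0.201% of all genes were). All 10 were remaining pseudogenes, and none of the 40 ribosomal protein copies or 6 mitochondrial copies tested was called by edgeR or DESeq2. At an unadjusted p below 0.05 by edgeR, 2 of the 40 ribosomal protein copies were higher and 1 lower, against 1593 and 1627 of all 19360 genes tested. RP11-462B18.3, an unprocessed pseudogene on chromosome 9, had 29, 30 and 29 counts with CBX1 against 7, 8 and 7 with CBX1_W42A (log2 2.06 ± 0.39, adjusted p = 0.00635), and 6, 9 and 2 in control, from which CBX1_W42A gave 0.25 ± 0.62 (adjusted p = 0.869). RP11-108K14.4 had 176, 165 and 165 against 119, 63 and 95 (0.96 ± 0.18, adjusted p = 0.00635), and ZNF876P had 103, 102 and 110 against 57, 60 and 52 (0.97 ± 0.19, adjusted p = 0.00849). For PRKXP1, the counts given above led to 1.00 ± 0.22 (adjusted p = 0.0178), and the call was lost without CBX1 replicate 1 or 3 or CBX1_W42A replicate 1 (adjusted p = 0.0581 to 0.0695). In these 4 every CBX1 library was above every CBX1_W42A library. The number higher fell from 9 to 3 without CBX1 replicate 1 or 3, to 4 without CBX1_W42A replicate 3 and to 6 without its replicate 1.

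Of the 9, 8 were also enriched with CBX1 over control, a comparison with the same CBX1 libraries. The exception, singled out after its values were seen, was DNM1P47, a pseudogene of the gene of the membrane-remodelling protein dynamin 1 on chromosome 15. It had 33, 25 and 31 counts with CBX1 and 13, 15 and 7 with CBX1_W42A, while control had 15, 17 and 20. The lower member was RP11-763B22.7, a processed pseudogene of 318 bases on chromosome 1, with 11, 12 and 10 counts with CBX1, 26, 33 and 31 with CBX1_W42A and 19, 7 and 12 in control (-1.37 ± 0.37, adjusted p = 0.0499), and its call was lost with DESeq2 (adjusted p of 0.0760) and when any of the 6 libraries was left out (adjusted p of 0.0546 to 0.189). TPTE2P5 and CCDC144CP, both enriched with CBX1 over control, had differences between the readers of 0.08 ± 0.14 (adjusted p = 0.822) and -0.22 ± 0.23 (adjusted p = 0.685). Over the 81 members enriched with CBX1, the log2 fold change of CBX1 against CBX1_W42A had a median of 0.68 and was positive in 78, with 8 called, a description only, as the CBX1 libraries had chosen them.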

How the data were processed

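Counts of reads per gene for 9 Chrom-seq libraries (3 control, 3 CBX1, 3 CBX1_W42A) were used as the authors deposited them, as whole-number counts without normalization. Per the methods and the submitters' processing notes, fastp (version 0.23.1) trimmed the reads, HISAT2 (version 2.1.0) placed them on hg19, and featureCounts (version 2.0.1) assigned them to GENCODE v19 genes. The strand setting and treatment of introns are not given in the sources used here. The counts behave as stranded over whole gene spans, and reads shared by genes of a strand count for none. Total counts were 8379542 to 11082852 per library, and 0 per-sample columns were left unused.

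In each comparison the 6 libraries were fitted with edgeR (version 4.0.16, R version 4.3.3): TMM factors, quasi-likelihood test, Benjamini-Hochberg over all genes with a summed count above 18, with calls at log2 0.75 or more in either direction and an adjusted p under 0.05. CPM used TMM factors over 9 libraries. Alternatives included DESeq2 (version 1.42.0). Dropping members that GENCODE v44 lists as protein coding or lncRNA was added after the data were seen. Copies were aligned to the coding sequence of the gene they are named after with blastn (version 2.17.0) on GRCh37. Figures used matplotlib (version 3.10.9).

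The members, gene lists and tests were chosen with earlier results of these data known. Named by rule were the members with the smallest adjusted p (for CBX1 against control up to 12 enriched remaining, 4 enriched of either other group and 4 depleted, otherwise 4 in each direction) and the 4 with the highest mean CPM in each group by name. Other members named in lists or singled out were chosen after their values were seen. A member that the rule named is not reported here. Same-numbered libraries did not deviate together (correlations of -0.08 to 0.08), so replicate numbers were not used as pairs.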

Additional observations from a re-analysis of the deposited data

How the results depend on the processing

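In CBX1 against control, 81 members were enriched in the fit as reported, 35 with at least 10 counts in every library, 17 in a test against a change of log2 0.75, and 43 among members overlapping no other gene, with 52 to 85 when single libraries were left out. For the remaining pseudogenes (78) these counts were 35, 16, 41 and 50 to 80. For the ribosomal protein copies (3) they were 0 with at least 10 counts, 1 in the test against log2 0.75, 5 when names were read by source gene (adding the RPSA and RPLP copies) and 1 to 5. The 1 depleted member became 0 with upper-quartile factors, library size alone, the test against log2 0.75, a minimum of log2 1 or no overlapping gene, 2 without a filter, 3 with all 9 libraries in one fit, and 1 to 3 with single libraries left out. In CBX1_W42A against control, the 11 enriched became 25 without a filter, 19 with all 9 libraries in one fit, 0 in the test against log2 0.75, 4 with no overlapping gene and 2 to 10 with single libraries left out, and the 0 depleted became 1 without a filter. In CBX1 against CBX1_W42A, the 9 higher became 15 without a filter, 0 in the test against log2 0.75, 3 with no overlapping gene and 3 to 13 with single libraries left out, and the 1 lower became 0 with RLE factors, upper-quartile factors, library size alone, all 9 libraries in one fit, the test against log2 0.75 or DESeq2, 2 without a filter, and 0 to 1 with single libraries left out, the 1 being a different member from RP11-763B22.7. Fewer genes or libraries enter some of these fits by construction, and for the others the cause was not tested. With the replicate number as a block, 16 were higher and 2 lower in CBX1 against CBX1_W42A, 56 were enriched in CBX1 against control and 11 in CBX1_W42A against control, but the libraries share only a number. DESeq2 called 61, 9 and 7 members enriched in the 3 comparisons. No named member that was called changed direction, and 922 of the 965 refits of named members left the call as it was. Low counts limit part of the calls: 28 of the 81 enriched had at most 15 counts over the 3 control libraries.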
